A study of Mus musculus with 4 samples.

Results

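The genes described here are 9 mouse genes for CC-family chemokines and the receptors that read them on myeloid cells, out of 56748 genes in the count table. They were chosen by name, with no measured value in the rule: the ligand genes Ccl2, Ccl3, Ccl4, Ccl6, Ccl7 and Ccl9, and the receptor genes Ccr1, Ccr2 and Cx3cr1. All 9 had a row in the table, and all 9 passed the filter on low counts, which kept 15320 genes. Bulk RNA sequencing was compared between 2 saline samples and 2 ADC/cmLumiOpto samples of lung carrying metastases of 4T1, a mouse triple-negative breast cancer line derived from BALB/c mammary tumor.

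Both groups came from female BALB/cJ mice given 4T1-FLuc cells, which carry firefly luciferase, through the tail vein at 7 weeks of age, so the lung tumors grew from cells placed in the circulation, in hosts with an intact immune system. The controls are called saline in their titles and PBS in their treatment field. The other group received the antibody-drug conjugate CD276-DM1 (mertansine, a microtubule poison, on an antibody to CD276) together with cmLumiOpto, a gene therapy that makes a light-gated channel in the mitochondria of cancer cells under the cfos promoter and opens it with luciferase light. Its labels give 16 mg/kg of the conjugate and the abbreviation Olap beside cmLumi, and the series gives 3 weeks of treatment. The study's methods give a lower dose for its lung metastasis model, lung tissue rather than harvested tumor cells, and more samples per group than the 2 analysed here. The study's text does not explain Olap. No group here received a single agent, so the effects of the conjugate, of cmLumiOpto and of anything Olap may name cannot be told apart. The methods call the samples biological ones, but no label ties a sample to an animal, so the tests measure the spread between these samples.

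Chemokines are small secreted proteins that steer leukocytes along a concentration gradient. CC chemokines have adjacent cysteines near the start of the mature protein, and their receptors span the membrane in a bundle of helices and signal through Gi proteins. In textbook accounts CCR2, with its ligands CCL2 and CCL7, brings classical monocytes out of the bone marrow and into inflamed or tumor-bearing lung. CCR1 is shared by CCL3, CCL6, CCL7 and CCL9, and CX3CR1, the receptor of the membrane-bound chemokine CX3CL1, marks nonclassical monocytes and many tissue macrophages.

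The coding stretches below show what the ligands share and how near their coding sequences lie to one another, since reads of such families are assigned by sequence. Each is 30 bases of the GENCODE M21 (GRCm38) transcript, 5′ to 3′, with the codons of the adjacent cysteines in capitals.
Ccl2: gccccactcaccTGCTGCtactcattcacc
Ccl7: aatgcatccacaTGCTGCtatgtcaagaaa
Ccl12: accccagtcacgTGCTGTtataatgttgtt
Ccl4: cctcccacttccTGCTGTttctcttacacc
Ccl6: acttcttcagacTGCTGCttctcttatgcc
Ccl9: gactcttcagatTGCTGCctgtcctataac

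Ccl6 and Ccl9 were identical at 21 of these 30 bases, whereas Ccl2 and Ccl7 shared 14. Ccl12, a further CCR2 ligand of the mouse, shared 17 with Ccl2. The first of the paired cysteines is residue 34 in the Ccl2 and Ccl4 products, residue 33 in Ccl7, residue 50 in Ccl6 and residue 57 in Ccl9, counted from the start codon.

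For the receptors, the matching stretch surrounds the Asp-Arg-Tyr codons, in capitals, a motif on the inner side of the membrane that takes part in coupling to G proteins.
Ccr1: acgattGACAGATACctggccattgtccat
Ccr2: acaattGATAGGTACttggctattgttcat
Cx3cr1: agcatcGACCGGTACcttgccatcgtcctg

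Ccr1 and Ccr2 were identical at 24 of 30 bases, Ccr1 and Cx3cr1 at 21, and Ccr2 and Cx3cr1 at 18. Over whole transcripts, no 50-base word of Ccl2, Ccl3, Ccl4, Ccl6, Ccl7 or Ccr1 occurred in the transcript of another gene. In Ccr2, 110 of 2950 words, 3.73%, occurred in the transcript of another gene. Reads from such stretches depend on how the authors' counting placed them, and their share of the counts was not measured. The transcript searched for Ccr2 has 2999 bases and the listed gene length is 6760, so the rest was not searched. Ccl9 shared 2.00% and Cx3cr1 0.459% of its words with transcripts of many genes.

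Total counts ran from 15263375 to 19675436 per sample, so that 3 counts corresponded to 0.152 to 0.197 CPM (counts per 1000000 counts of a library). Levels of genes below are CPM after TMM scaling of the libraries. Markers of the lung's own epithelium summed to 2607 and 390 CPM in saline replicates 1 and 2 and to 11403 and 7504 CPM in the ADC/cmLumiOpto replicates, beside 2475 to 3022 CPM for markers of epithelial tumor cells, so lung RNA was present in all 4 samples. Lung epithelium shares some of the latter markers. Saline replicate 2 stood apart in leukocyte genes: its T and NK cell markers summed to 18.5 CPM against 47.3 to 119 in the other 3 samples, and 6 markers of T and NK, nonclassical monocyte, dendritic and B cells had no count in it, while in the other 3 samples 0 markers of these lists lacked a count. ADC/cmLumiOpto replicate 2 held the most neutrophil marker RNA, 8451 CPM against 644 to 1368 elsewhere. For the 9 genes, the values with each sample left out are given below, and the marker lists and other genes are given with all 4 samples only.

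Across the 9 genes, the CCR2 ligands Ccl2 and Ccl7 and the receptors Ccr1 and Ccr2 were higher in both ADC/cmLumiOpto samples than in both saline samples, at 1.81 to 3.26 times the saline mean. The remaining ligands Ccl3, Ccl4, Ccl6 and Ccl9 and the receptor Cx3cr1 overlapped between the groups. None of the 9 passed the edgeR quasi-likelihood test at an adjusted p under 0.05, and none of the 15320 genes tested did either (0% called, smallest adjusted p 0.116). At an unadjusted p under 0.05, 3 of the 9 were higher after treatment, Ccl2, Ccl7 and Ccr1, and 0 were lower. Over all 15320 tested genes, 11% were higher and 1863 genes were lower at that threshold. The 4 genes whose treated samples both exceeded both saline samples compare with 28.1% of all tested genes. The other way lay 0 members, beside 4418 of all tested genes. The median log2 fold change of the 9 genes was 0.65, against 0.03 over all tested genes.

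Other ways of testing the same counts called some of the 9, all of them higher after treatment. DESeq2 called 3, Ccl2 (adjusted p = 0.000238), Ccl7 (0.00283) and Ccr1 (0.0300), where 4.28% of the genes to which it gave an adjusted p were called higher. The edgeR exact test called Ccl2 and Ccl7 (adjusted p = 0.000635 and 0.00386), against 3.96% of genes. Without the filter on low counts, the edgeR quasi-likelihood test called 5, Ccl2 (adjusted p = 4.10e-05), Ccl7 (0.000451), Ccr1 (0.00188), Ccr2 (5.51e-11) and Cx3cr1 (0.0362), against 4.79% of genes. In that fit the SE of Ccr2 was 0.22, against 0.72 with the filter, at the same log2 fold change of 1.62. For Cx3cr1 it was likewise 0.22, against 0.62 with the filter. DESeq2 called neither Ccr2 nor Cx3cr1 (adjusted p = 0.394 and 0.737). The edgeR exact test called neither (adjusted p = 0.157 and 0.590). With 2 samples a group, an exact two-sided permutation test of a single gene cannot go below p = 0.333.

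**Figure D1:**
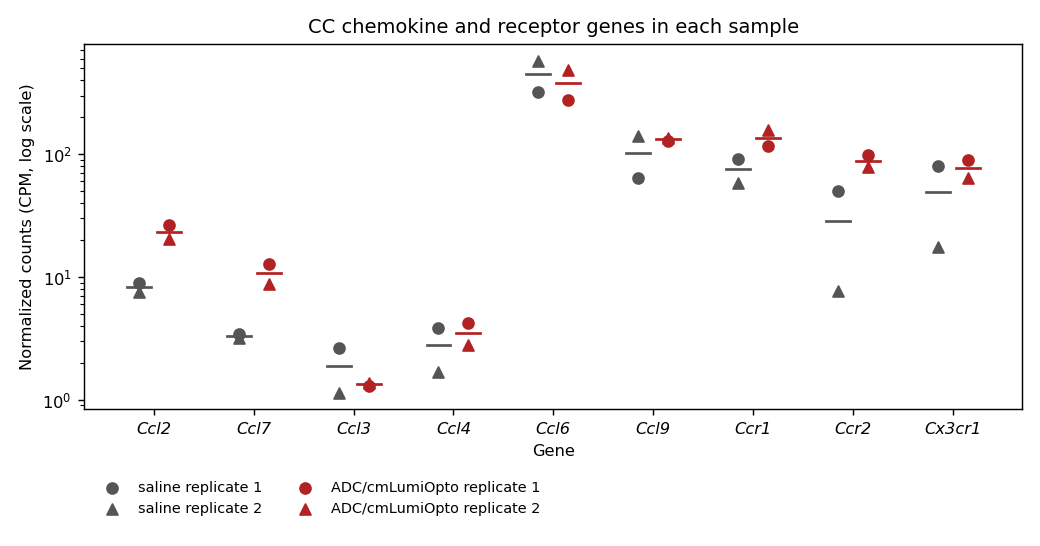
Normalized counts (CPM, log scale) of the 9 genes in each of the 4 samples. Circles are replicate 1, triangles replicate 2, grey saline, red ADC/cmLumiOpto, and short lines the group means. The red points of Ccl2, Ccl7, Ccr1 and Ccr2 all lie above the grey ones, and the grey points of Ccr2 and Cx3cr1 lie far apart, at 49.9 and 7.68 CPM and at 80.7 and 17.5 CPM.

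Ccl2, the monocyte chemoattractant that is the main ligand of CCR2, was counted 144 and 112 times in saline and 467 and 417 times after ADC/cmLumiOpto. These correspond to 9.0 and 7.55 CPM against 26.5 and 20.3 CPM, so the lowest treated sample lay at more than double the highest saline one. The group means were 8.28 ± 1.03 and 23.4 ± 4.34 CPM (SD, n = 2 each), a ratio of 2.83. Its log2 fold change was 1.5 (SE 0.26; edgeR adjusted p = 0.116), above 95.3% of tested genes. Leaving out each sample in turn kept it between 1.30 and 1.67.

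Ccl7, a second ligand of CCR2 that also binds CCR1, had 55 and 47 counts in saline and 226 and 179 after treatment. Its levels were 3.44 and 3.17 CPM in saline and 12.8 and 8.73 CPM after treatment, again without overlap. The mean was 3.30 ± 0.191 CPM in saline and 10.8 ± 2.88 CPM after treatment (SD, n = 2 each), 3.26 times as high. The log2 fold change was 1.70 (SE 0.34; edgeR adjusted p = 0.116) and stayed between 1.40 and 1.95 with any 1 sample left out. There were 2.62 and 2.38 Ccl2 counts per Ccl7 count in saline and 2.07 and 2.33 after treatment. Both treated ratios lay below the saline ones, but the nearest, 2.33 and 2.38, barely differ. The 2.38 rests on 47 Ccl7 counts.

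Ccl3, a ligand of CCR1 released by activated macrophages and neutrophils, was the lowest of the 9 genes per length and had 42 and 17 counts in saline and 23 and 28 after treatment. At 2.63 and 1.15 CPM against 1.30 and 1.37 CPM, the treated samples lay between the saline ones. Its log2 fold change was -0.50 (SE 0.57; edgeR adjusted p = 0.625) and was 0.21 without saline replicate 1. Ccl4, its neighbour on the chromosome and a related chemoattractant of macrophages and T cells, had 62 and 25 counts in saline and 75 and 57 after treatment, which are 3.88 and 1.69 CPM against 4.25 and 2.78 CPM. The log2 fold change of Ccl4 was 0.33 (SE 0.53; edgeR adjusted p = 0.734), and it ran from -0.14 without saline replicate 2 to 1.04 without saline replicate 1. For both genes the saline samples themselves lay over 2-fold apart.

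Ccl6, a ligand of CCR1 abundant in lung macrophages of the mouse, had by far the most counts, 5089 and 8586 in saline and 4878 and 9931 after treatment. Its levels of 318 and 579 CPM in saline and 276 and 484 CPM after treatment interleaved. The means were 448 ± 184 and 380.4 ± 147 CPM (SD, n = 2 each), with a log2 fold change of -0.24 (SE 0.36; edgeR adjusted p = 0.720). Its direction turned, to 0.26, without saline replicate 2. Ccl9, another CCR1 ligand of rodents, had 1015 and 2086 counts in saline and 2256 and 2786 after treatment, or 63.5 and 140.6 against 127.9 and 135.9 CPM. Both treated values lay within the saline range, and the log2 fold change was 0.37 (SE 0.35; edgeR adjusted p = 0.553), from -0.11 without saline replicate 1 to 1.06 without saline replicate 2. Alveolar macrophage markers summed to 180.0 and 531 CPM in saline and to 153 and 256 CPM after treatment. Most of the sum in 3 of the 4 samples was Chil3, singled out after its values were seen, at 115 and 418 CPM in saline and 41.7 and 162 CPM after treatment. Chil3 thus had the sample order of Ccl6, while Siglecf, Car4 and Ear1 of the same list did not, and the part of these cells in the Ccl6 level was not tested.

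Ccr1, the receptor for several of these ligands on monocytes, macrophages and neutrophils, had 1470 and 872 counts in saline and 2057 and 3201 after treatment. It stood at 91.9 and 58.8 CPM in saline and at 117 and 156 CPM after treatment, without overlap. The mean was 75.3 ± 23.4 CPM in saline and 136 ± 27.9 CPM after treatment (SD, n = 2 each), a ratio of 1.81. The log2 fold change was 0.86 (SE 0.26; edgeR adjusted p = 0.143) and ran from 0.57 to 1.20 with each sample left out. Its highest value was in ADC/cmLumiOpto replicate 2, the sample with 8451 CPM of neutrophil markers. Without that sample it was 0.62.

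Ccr2, the receptor that classical monocytes use to enter tissue, had 798 and 114 counts in saline and 1734 and 1621 after treatment. These are 49.9 and 7.68 CPM in saline and 98.3 and 79.0 CPM after treatment, without overlap, but saline replicate 1 lay nearer in fold to both treated samples than to saline replicate 2. The means were 28.8 ± 29.8 and 88.7 ± 13.6 CPM (SD, n = 2 each), a ratio of 3.08, and the log2 fold change was 1.62 (SE 0.72; edgeR adjusted p = 0.237). Without saline replicate 2 it was 0.83. Without saline replicate 1 it was 3.51 (SE 0.33; edgeR adjusted p = 0.00644), against a background of 1.01% of genes called higher in that comparison, in which the lone saline sample was assumed to vary like the other group. The size of the Ccr2 difference thus depended on saline replicate 2.

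Cx3cr1, found on nonclassical monocytes and resident macrophages, had 1291 and 259 counts in saline and 1593 and 1301 after treatment. Its levels were 80.7 and 17.5 CPM in saline against 90.3 and 63.4 CPM after treatment, so saline replicate 1 lay between the treated samples. The log2 fold change was 0.65 (SE 0.62; edgeR adjusted p = 0.559). It was -0.07 without saline replicate 2 and 2.13 without saline replicate 1, where the low saline replicate 2 alone stood for saline. Saline replicate 2 was the lowest of the 4 samples for all 3 receptors, whereas for Ccl6 and Ccl9 it was the highest. In counts, Ccr2 stood to Cx3cr1 at 0.618 and 0.440 in saline and at 1.09 and 1.25 after treatment, a ratio that did not overlap between the groups although Cx3cr1 itself did. This and 8 other gene pairs were set side by side after their values were known.

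**Figure D2:**
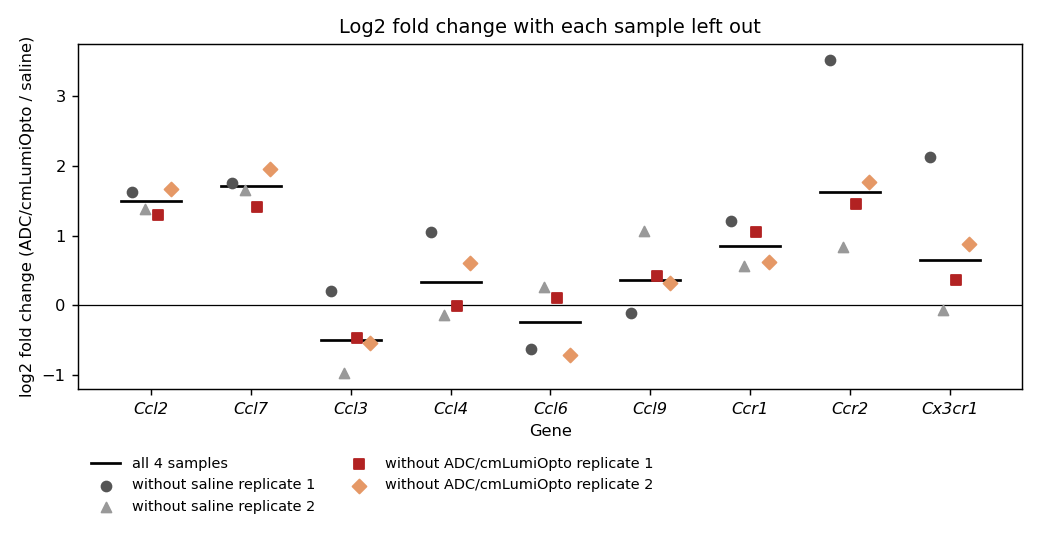
Log2 fold change (ADC/cmLumiOpto over saline) of the 9 genes with all 4 samples (black line) and with each sample left out (symbols). Ccl2, Ccl7, Ccr1 and Ccr2 stay above 0 throughout, Ccr2 between 0.83 and 3.51, while Ccl3, Ccl4, Ccl6, Ccl9 and Cx3cr1 fall on both sides of 0.

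Per kilobase of the gene length listed in the table, the scale on which different genes can be compared, Ccl6 was highest in both groups, at 250 ± 103 CPM per kb in saline and 212 ± 81.9 after treatment (SD, n = 2 each, as for the other values per kb). In saline Ccl9 (33.5 ± 17.9) and Ccr1 (26.6 ± 8.27) followed, then Cx3cr1 (10.9 ± 9.93), Ccl2 (7.27 ± 0.903), Ccr2 (4.26 ± 4.41), Ccl4 (4.21 ± 2.35), Ccl7 (4.12 ± 0.239) and Ccl3 (2.46 ± 1.37). Of these 8 neighbouring pairs only Ccl6 and Ccl9, Ccr1 and Cx3cr1, and Ccl7 and Ccl3 had samples that did not overlap. After treatment the order was Ccr1 (48.1 ± 9.86), Ccl9 (43.3 ± 1.86), Ccl2 (20.6 ± 3.81), Cx3cr1 (17.1 ± 4.21), Ccl7 (13.4 ± 3.60), Ccr2 (13.1 ± 2.01), Ccl4 (5.33 ± 1.58) and Ccl3 (1.74 ± 0.0571) below Ccl6. Here Ccl6 and Ccr1, Ccl9 and Ccl2, Ccr2 and Ccl4, and Ccl4 and Ccl3 did not overlap, whereas the other neighbours did. For Ccr2 the listed 6760 bases compare with 2999 in the transcript used above, and with the shorter length it would stand higher in this order. Ccl6 made up 51.1% and 70.9% of the summed CPM of the 9 genes in saline and 36.7% and 50.9% after treatment. Without it the other 8 summed to 305 and 238 CPM in saline and to 478 and 468 CPM after treatment.

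The 6 ligand genes lie on chromosome 11 in separate groups of neighbours. Ccl2 (ENSMUSG00000035385, chr11:81926397-81928279, plus strand) and Ccl7 (ENSMUSG00000035373, chr11:81936538-81938351, plus strand) belong to the first, and Ccl9 (ENSMUSG00000019122, chr11:83463745-83469462), Ccl6 (ENSMUSG00000018927, chr11:83478708-83483913), Ccl3 (ENSMUSG00000000982, chr11:83538670-83540181), all on the minus strand, and Ccl4 (ENSMUSG00000018930, chr11:83553410-83555509, plus strand) to the second. These are whole genes at the positions the table lists, on mm39 by the submitters' processing notes. With the other tested ligand genes that lie there, the first group held 6 genes with a median log2 fold change of 1.60 (0.35 to 2.59), 4 of them higher at an unadjusted p under 0.05, where the share was 11% over all tested genes and 22.0% over genes of up to 1200 bases, the class of all in this group but Ccl1. The second held 5, with a median of 0.33 (-0.50 to 0.87) and 0 at an unadjusted p under 0.05. The difference between the groups was not tested. The receptor genes are on chromosome 9: Cx3cr1 (ENSMUSG00000052336) at chr9:119730682-119898945 on the minus strand, Ccr1 (ENSMUSG00000025804) at chr9:123762161-123768729 on the minus strand and Ccr2 (ENSMUSG00000049103) at chr9:123901987-123913594 on the plus strand.

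**Figure D3:**
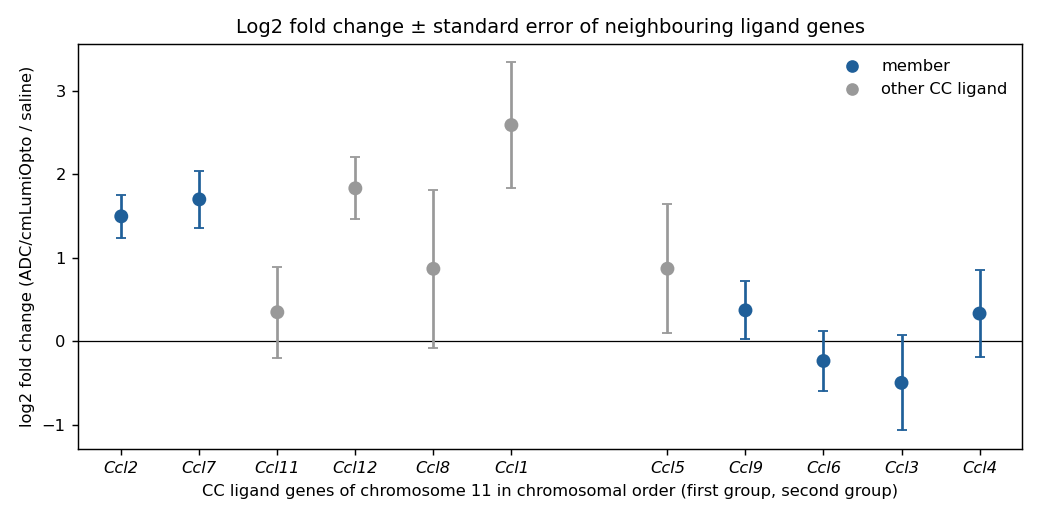
Log2 fold change (ADC/cmLumiOpto over saline) with its standard error for the tested CC ligand genes of chromosome 11 in chromosomal order. Blue points are the 6 ligands described here and grey points other ligands. The first group runs from 0.35 to 2.59 and the second from -0.50 to 0.87.

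Of the 16 other CC and CX3C ligand genes listed, 11 were tested, 9 of them higher and 2 lower, with a median log2 fold change of 0.87. None passed the adjusted threshold. At an unadjusted p under 0.05 there were 2 higher, beside 11% of all tested genes, and 1 lower, beside 1863 of 15320. Ccl12, a CCR2 ligand in the same group of neighbours as Ccl2 and Ccl7, had 114 and 56 counts in saline and 392 and 344 after treatment, with a log2 fold change of 1.83 (SE 0.37; edgeR adjusted p = 0.116). Both treated samples lay above both saline samples for each of Ccl2, Ccl7 and Ccl12, as for 28.1% of all tested genes. These genes were not tested as a set. Ccl1, a T cell chemokine, had 3 and 2 counts against 23 and 15 (edgeR adjusted p = 0.136), too few for a firm size. Ccl24, an eosinophil chemokine, was lower, at 17.9 and 27.7 CPM in saline and 11.3 and 14.6 CPM after treatment (log2 fold change -0.82, SE 0.29; edgeR adjusted p = 0.172). Ccl5 and Ccl8 overlapped between the groups, both with their lowest value, 44 and 52 counts, in saline replicate 2. Cx3cl1, the ligand of CX3CR1, stood at 175 and 224 CPM in saline and at 171 and 153 CPM after treatment (log2 fold change -0.30, SE 0.19; edgeR adjusted p = 0.359).

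Among 15 other CC, XC and atypical chemokine receptor genes, 9 were tested, 7 higher and 2 lower, with a median log2 fold change of 0.78. At an unadjusted p under 0.05 there were 0, beside 3553 of the 15320 tested genes in either direction. Ccrl2, a receptor-like protein that presents chemerin, had the smallest p, with 114 and 80 counts in saline and 162 and 229 after treatment (log2 fold change 0.70, SE 0.31; edgeR adjusted p = 0.233). Ccr7, which guides dendritic and T cells to lymph nodes, followed at 57 and 16 counts against 147 and 72, and Ackr3, a scavenging receptor, at 841 and 1294 against 783 and 1133. Of 23 genes for signalling downstream of chemokine receptors, 14 were higher and 9 lower (median 0.24). At an unadjusted p under 0.05, 5 were higher, beside 11% of all tested genes, and 0 were lower, beside 1863 of 15320. Fgr, a Src family kinase of myeloid cells, had 270 and 150 counts in saline and 419 and 1335 after treatment, most of them in the neutrophil-rich ADC/cmLumiOpto replicate 2, and Rgs2, a brake on G protein signalling, had 485 and 329 against 758 and 984.

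The 12 pan-myeloid markers summed to 2512 and 1759 CPM in saline and to 5268 and 3448 CPM after treatment. Of these, 11 of 12 were higher, with a median log2 fold change of 0.68, 4 of them at an unadjusted p under 0.05, beside 11% of all tested genes. Tyrobp, an adapter of myeloid receptors, Lyz2, which encodes lysozyme, and Spi1, the myeloid transcription factor PU.1, had the smallest p (log2 fold changes 1.04, 1.26 and 0.94). Lyz2 alone made up 64.1% to 81.6% of the sum, and it is also made by alveolar type II cells of the lung. The list of lung epithelial markers holds genes of these and of other epithelial cells. All 6 of its genes were higher in both treated samples than in both saline samples, beside 28.1% of all tested genes. In bulk RNA, fewer cells of a type and less RNA per cell cannot be told apart.

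Classical monocyte markers, of which Ccr2 is a known companion, summed to 441 and 472 CPM in saline and 562 and 778 CPM after treatment, yet at an unadjusted p under 0.05 2 of 7 were higher and 2 lower: Hp (log2 fold change 2.18) on one side and Vcan (-1.43) and F13a1 (-1.31) on the other were the 3 with the smallest p. At the same threshold, 11% of all tested genes were higher and 1863 of 15320 were lower. Nonclassical monocyte markers summed to 550.0 and 570 CPM in saline and 573 and 812 CPM after treatment. Those of interstitial macrophages summed to 1535 and 1471 against 1919 and 1435 CPM. Neutrophil markers had a median log2 fold change of 2.11, and 6 of 8 were higher at an unadjusted p under 0.05. But 3 of 8 lay higher in both treated samples than in both saline samples, beside 28.1% of all tested genes. The neutrophil sum in ADC/cmLumiOpto replicate 1, 1277 CPM, lay below the 1368 CPM of saline replicate 1. The sums of pan-myeloid, neutrophil, T and NK cell, dendritic cell and B cell markers were lowest in saline replicate 2, like Ccr1, Ccr2 and Cx3cr1. So were those of lung epithelial, endothelial and erythroid markers. The sums for both monocyte types, both macrophage types, epithelial tumor cells and fibroblasts were lowest in other samples. For T and NK cells the sums were 47.3 and 18.5 CPM in saline and 119 and 48.9 CPM after treatment, so saline replicate 1 and ADC/cmLumiOpto replicate 2 nearly coincided. Of the 9 T and NK cell genes tested, 3 lay higher in both treated samples, beside 28.1% of all tested genes. At an unadjusted p under 0.05, 3 were higher, beside 11% of all tested genes, and 0 passed the adjusted threshold. Fibroblast markers summed to 3825 and 2700 CPM in saline and to 1281 and 1075 CPM after treatment. Their part in the results for Ccl2, Ccl7 and the receptors was not tested.

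**Figure D4:**
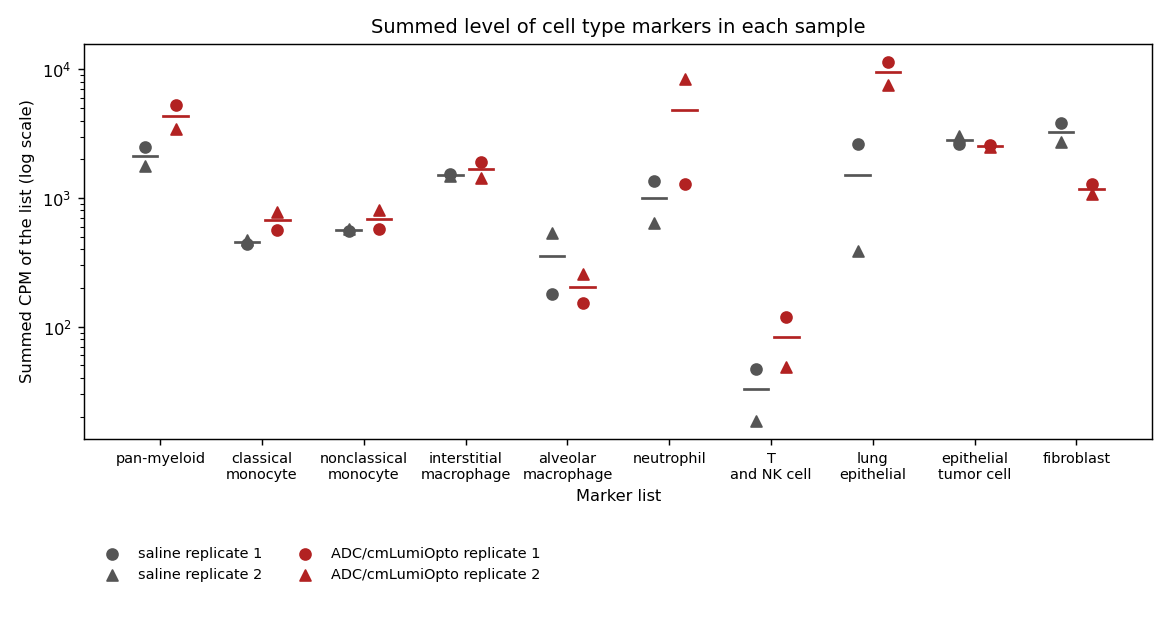
Summed CPM (log scale) of marker lists in each sample. Circles are replicate 1, triangles replicate 2, grey saline, red ADC/cmLumiOpto, short lines the group means. Pan-myeloid and lung epithelial sums are higher in both treated samples and fibroblast sums lower, and the neutrophil sum reaches 8451 CPM in one treated sample.

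Relative to the pan-myeloid sum, Ccl2 and Ccl7 remained above saline in both treated samples. Per 1000 CPM of pan-myeloid markers, Ccl2 stood at 3.58 and 4.29 CPM in saline and at 5.02 and 5.90 CPM after treatment, and Ccl7 at 1.37 and 1.80 against 2.43 and 2.53 CPM. Ccl3 lay below saline on this scale, at 1.05 and 0.651 against 0.247 and 0.396 CPM, and so did Ccl4, at 1.54 and 0.958 against 0.807 and 0.806 CPM. Ccr1, at 36.6 and 33.4 against 22.1 and 45.3 CPM, and Ccr2, at 19.9 and 4.37 against 18.7 and 22.9 CPM, overlapped, as did Ccl6, Ccl9 and Cx3cr1.

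These placements depended on the denominator. With Lyz2 left out of the sum, an alternative chosen after seeing the data, 4 genes were above, Ccl2 (10.9 and 12 CPM per 1000 CPM in saline, 27.3 and 20.3 after treatment), Ccl7, Ccr1 and Ccr2, and only Ccl3 was below. Against Ptprc, the gene for the leukocyte antigen CD45, at 69.9 and 47.9 CPM in saline and 105 and 174 CPM after treatment, 0 were above and 3 were below, Ccl3, Ccl6 and Ccr1. Ccl3 was below with all 3 denominators, and no gene was above with all 3. All 3 denominators were themselves higher in both treated samples. The share of all tested genes above or below on these scales was not computed, so these counts have no background.

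**Figure D5:**
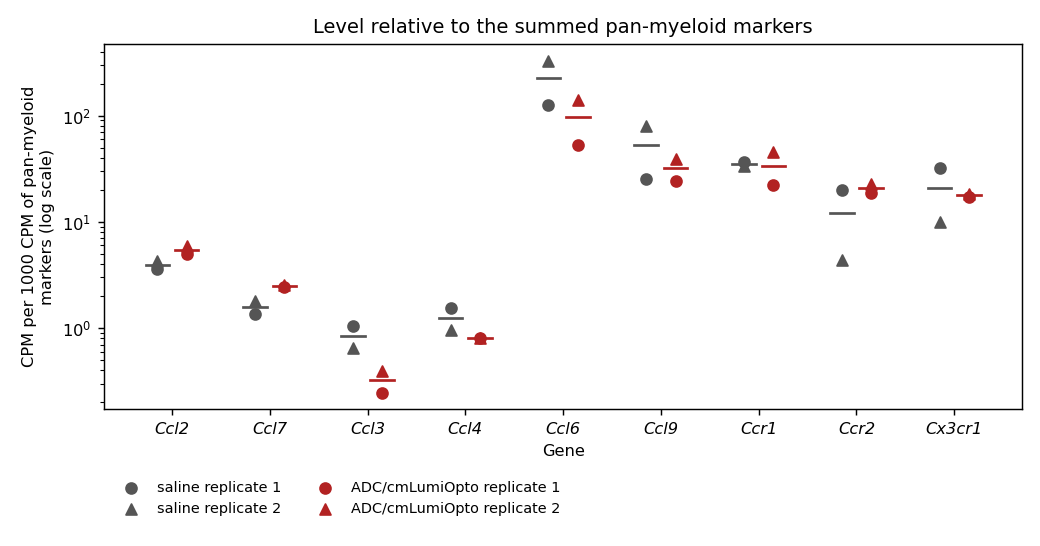
Level of each of the 9 genes per 1000 CPM of summed pan-myeloid markers (log scale) in each sample. Symbols and colors as for the CPM of the genes. Ccl2 and Ccl7 lie above saline in both treated samples and Ccl3 and Ccl4 below, and the other 5 genes overlap.

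Gene length went with the fold change over the whole table, with a Spearman rho of -0.34 over the tested genes. Genes of up to 1200 bases had a median log2 fold change of 0.40 and 22.0% of them were higher at an unadjusted p under 0.05, and Ccl2, Ccl3, Ccl4 and Ccl7 are among these. Genes over 3100 bases, among them Ccr2 and Cx3cr1, had a median of -0.09 and 6.97%. With the length trend removed, Ccl2 stood at 1.18 (SE 0.23) and Ccl7 at 1.36 (SE 0.30), both at an edgeR adjusted p of 0.152, Ccr1 at 0.75 and Ccr2 at 1.78. The short ligand genes were thus the ones whose values depended most on this correction.

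RefSeq promoter windows (GRCm38.p6, 250 bases before to 50 after the start site) matched 6 of the 9 genes. They were searched on both strands for GAGGAA, the core of the binding motif of PU.1, whose gene Spi1 is among the myeloid markers. It occurred in 2 of the 6, Ccr1 and Ccl3, where 28.28% of 32851 promoters held it, which is near the background. The windows of the 2 receptors that were higher in both treated samples are shown, with the match in capitals.
Ccr1 (chr9:123968643-123968942, minus strand): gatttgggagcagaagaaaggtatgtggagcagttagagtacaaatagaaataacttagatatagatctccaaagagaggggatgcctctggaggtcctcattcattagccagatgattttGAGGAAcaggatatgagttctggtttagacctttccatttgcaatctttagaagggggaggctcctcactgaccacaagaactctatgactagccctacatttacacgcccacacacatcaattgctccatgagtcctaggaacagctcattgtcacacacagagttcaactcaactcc
Ccr2 (chr9:124101933-124102232, plus strand): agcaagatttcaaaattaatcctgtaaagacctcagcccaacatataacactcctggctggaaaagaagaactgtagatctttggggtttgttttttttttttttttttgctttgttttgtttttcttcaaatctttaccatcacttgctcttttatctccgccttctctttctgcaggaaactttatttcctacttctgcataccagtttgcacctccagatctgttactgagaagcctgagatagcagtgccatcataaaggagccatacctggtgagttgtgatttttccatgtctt

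The Ccr1 match lies 129 bases before the start site, and these letters were not in the Ccr2 window. In Ccl9, TATAAA occurred 3 times over both strands, with matches on opposite strands that overlap. The other windows searched held no match, and 13.62% of all promoters held the motif.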

How the data were processed

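Poly(A) RNA of 2 saline and 2 ADC/cmLumiOpto samples was sequenced on an Illumina HiSeq instrument. The authors deposited raw read counts per gene, aligned with HISAT2 per the study's methods; the counting tool and the strand setting are not given in the sources used here. The submitters' processing notes give mm39 and the methods GRCm38/mm10; none of the 9 genes and 1524 of 52125 shared identifiers had the start and end of the GRCm38 annotation, so positions are given as the table lists them and sequences with their own build.

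Counts were filtered with filterByExpr (minimum count 10, minimum total 15), scaled by TMM and fitted across all 15320 genes with the edgeR 4.0.16 quasi-likelihood F test in R 4.3.3, with Benjamini-Hochberg adjustment and a threshold of 0.05. The prior count for fold changes was 0.125. The standard error is the absolute log2 fold change divided by the square root of F. Levels are TMM-scaled CPM. Depth was 15263375 to 19675436 counts per sample; a floor of 3 counts covers counting error only. The fits were tested on simulated data.

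Alternatives were DESeq2 1.42.0, other scalings, the exact test, other filters, a replicate block, a length trend (lowess span 0.3), each sample left out and other denominators. Named genes were the 9, from each other list the 3 with the smallest edgeR p, and Cx3cl1, Ccl5, Ccl8, Ccl12 and Ccrl2; for Ccl2 and Ccr2 the 5 protein-coding genes nearest in centred log2 CPM (prior count 2). The genes and lists were chosen with earlier results of these data known. 1 sequence and 1 gene of these lists are not reported here.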

Additional observations from a re-analysis of the deposited data

How the results depend on the processing

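The number of the 9 genes with an adjusted p under 0.05, 0 in the edgeR quasi-likelihood test, was 3 with DESeq2, 2 with the edgeR exact test and 5 without the filter on low counts; over all genes these settings called 1353, 1170 and 2259 genes. The other scalings, the stricter filter and the removed length trend called 0. With each sample left out, 0 to 2 of the 9 and 0 to 218 of all genes were called, and the median log2 fold change of the 9 ran from 0.42 to 1.20. Signs turned for Ccl4 (-0.0213 with the length trend removed) and, over the samples left out, for Ccl3 (-0.97 to 0.21), Ccl4 (-0.14 to 1.04), Ccl6 (-0.70 to 0.26), Ccl9 (-0.11 to 1.06) and Cx3cr1 (-0.0669 to 2.13); Ccl2, Ccl7, Ccr1 and Ccr2 kept theirs under all 12 alternatives. Of the 9 genes, 2 were above saline relative to the pan-myeloid sum, 4 without Lyz2 and 0 relative to Ptprc. The share over all tested genes was not computed for these counts. Apart from the samples left out and the marker denominators, the cause of these shifts was not tested.

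The replicate numbers name samples only: deviations of same-numbered samples correlated at 0.0985 with 2 pairs. The fit with the replicate block called 3 of the 9, Ccl2, Ccl7 and Ccr2 (edgeR adjusted p = 0.0261, 0.0434 and 0.0435), and 607 of all genes. With 2 samples a group the spread of each gene rests on 2 residual degrees of freedom before sharing across genes, and Ccl3 and Ccl4, at 17 to 75 counts, are limited by depth as well.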

Other observations

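Over the 4 samples, the protein-coding genes whose centred log2 CPM lay nearest to Ccl2 were Tmem256, at a root mean square difference of 0.045, Oas1b (0.075), Sh2d1b1 (0.089), Pop5 (0.101) and Ptpn18 (0.102). Tmem256 stood at 25.8 and 22.4 CPM in saline and at 75.2 and 55.0 CPM after treatment, and Oas1b, an interferon-induced gene, at 1.75 and 1.69 against 5.67 and 4.54 CPM. Nearest to Ccr2 were Slc9a7 (0.073), Edn3 (0.086), Colgalt2 (0.127), Ffar4 (0.141) and Bmp3 (0.154). Each was at its lowest in saline replicate 2, where Slc9a7 had no count and Bmp3 stood at 0.539 CPM. Edn3, Colgalt2 and Ffar4 stood there at 0.0674 CPM, below the 0.197 CPM of 3 counts. The closeness of these genes to Ccr2 thus depends on the prior count of 2. These names describe the profiles only.

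Of 9 gene pairs set side by side as count ratios after their values were known, 4 had both treated ratios below both saline ones: Ccl2 to Ccl7, given above, Ccl2 to Ccl12 (1.26 and 2.00 in saline, 1.19 and 1.21 after treatment), Ccl3 to Ccl4 (0.677 and 0.680, against 0.307 and 0.491) and Ccl6 to Ccl9 (5.01 and 4.12, against 2.16 and 3.56). Another 3 had both treated ratios above: Ccr2 to Cx3cr1, given above, Ccl7 to Ccl3 (1.31 and 2.76, against 9.83 and 6.39) and Ccl2 to Ccl6 (0.0283 and 0.0130, against 0.0957 and 0.0420). The ratios of Ccr2 to Ccr1 and of Ccl2 to Ccr2 overlapped. None of these was tested. The pairs share genes with one another, and the share of other gene pairs that separate was not computed, so these counts have no background.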
